A study of Homo sapiens with 8 samples.

Results

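The genes of the MYC, MAX and MXD network were followed in human keratinocytes in which the EGF receptor ligand amphiregulin was depleted. Its 9 members here are MYC, MAX, MXD1, MXD3, MXD4, MXI1, MNT, MLX and MGA. They were taken by gene symbol from a table of RPKM values, read counts scaled by gene length and by the mapped reads of the library. All 9 were found among its 21510 symbols, and all 9 passed the filter on low values of at least 1 RPKM in at least 2 libraries, which kept 12567 genes.

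The cells were N/TERT-2G, a keratinocyte line immortalised with telomerase. All libraries came from cells that express a short hairpin RNA against AREG, the amphiregulin gene, when tetracycline is added, grown in medium with 0.4 mM calcium chloride and collected subconfluent at 60 h. The control group (3 libraries) received no tetracycline, the Tet group (3 libraries) received 1 µg/ml, and the Tet+EGF group (2 libraries) received 1 µg/ml together with 20 ng/ml EGF. Batch 1 held replicates 2 and 3 of control and of Tet, and batch 2 held replicate 1 of control and of Tet and both Tet+EGF libraries, as the sample descriptions name the batches. Effects of tetracycline and of the hairpin cannot be told apart, since no group had one alone. Whether the replicates came from separate cultures is not in the labels, and p-values then measure only the spread between these libraries, which may be technical.

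MYC is a transcription factor of the basic helix-loop-helix leucine zipper class. It binds DNA as a dimer with MAX, typically at the E-box sequence CACGTG, and its activation of genes for ribosome production, nucleotide synthesis and cell cycle entry is well known. MXD1, MXI1, MXD3, MXD4, MNT and MGA also pair with MAX. The MXD proteins and MNT bring in SIN3 and histone deacetylases and repress E-box genes, and MGA belongs to the variant Polycomb complex PRC1.6. MLX is a MAX-like partner of MondoA (MLXIP) and ChREBP (MLXIPL), which sense glucose metabolites. In epidermis MYC is known from proliferating basal cells and MXD1 from differentiating suprabasal cells.

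AREG itself was at 188.8 to 315.6 RPKM in the control libraries, 6.63 to 16.7 with Tet, and 17.4 and 20.9 with Tet and EGF. Depth relative to control replicate 1, taken from ratios of low RPKM values of the same genes between libraries, ran from 63.4% (Tet replicate 3) to 111% (Tet replicate 1). Absolute depth was not estimated, since such ratios do not give it. Basal keratinocyte markers (7 of 7 detected at 1 RPKM or more) summed to 18410 to 22460 RPKM in control, 26040 to 31940 in Tet and 15820 to 16150 in Tet+EGF. KRT5 and KRT14 made up nearly all of these sums, and between Tet and control 4 of the 7 were called higher and 3, TP63 (-0.33), ITGB4 (-0.997) and COL17A1 (-0.44), lower (limma). With EGF ITGB4 was higher than with Tet by 1.45, against the direction of the sum. Fibroblast markers (3 of 9 reached 1 RPKM in a library) summed to 3.19 to 4.601, 17.3 to 20.7 and 4.18 to 4.68. Of these 3, COL1A1 (2.07) and DCN (3.96) were called higher in Tet than in control and FBLN1 was not called (limma). Among those below 1 RPKM, LUM was higher with Tet and THY1 lower. COL1A2, COL3A1, PDGFRA and PDGFRB stayed at or below 0.026 RPKM. Leukocyte markers (2 of 6) summed to 47.5 to 59.1, 29.1 to 41.6 and 108.7 to 109.3. Endothelial markers (2 of 5, PECAM1 at 0 in all libraries) summed to 5.87 to 10.7 over all libraries and melanocyte markers (1 of 5, TYR at 0) to 0.94 to 2.22. The endothelial markers KDR (2.29) and ENG (-1.09) were called in opposite directions between Tet and control (limma). The part of these markers in the results below was not tested. In bulk RNA, fewer cells of a type and less RNA per cell cannot be told apart.

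The E-box was looked for in the members' own promoters because MYC and MXD dimers bind it. The MYC promoter was left out of the member results. Of the other 8 members (RefSeq promoter table, GRCh38.p14, 250 bases before to 50 after each start), MLX, MNT and MXD4 held CACGTG, 1 match each. Among all 35116 windows of that length 7.26% held it, and 8.77% of the 27305 genes with a window did. The motif reads the same on both strands. The 3 matches are given with 10 bases on each side, 5′ to 3′ on the gene's strand, with the motif in capitals.
MXD4 (chr4:2262332-2262357, minus strand): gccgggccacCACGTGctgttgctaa
MNT (chr17:2401238-2401263, minus strand): ctgcccgggcCACGTGtgcgcgcgcc
MLX (chr17:42567040-42567065, plus strand): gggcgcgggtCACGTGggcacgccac
The motif began 238 bases before the start in MXD4, 193 in MNT and 50 in MLX. A match is a description of the sequence and not evidence of binding.

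Because RPKM is scaled by length, levels can be set side by side between genes. MYC had the highest level of the 9 in every library, from 39.7 to 208.0 RPKM. MXD3 followed (21.7 to 38.9), then MLX (15.5 to 21.9), MXD4 (8.12 to 29.7), MAX (12.7 to 18.7), MNT (6.56 to 18.7), MXI1 (3.67 to 7.35), MGA (1.97 to 3.35) and MXD1 (1.604 to 6.02). The ranges of MYC and MXD3 did not overlap, nor did those of MXI1 and MGA. MXD3 was above MLX within each of the 8 libraries, though their ranges over all libraries met. Both may hold reads of overlapping genes, as given below, so their place in this order is not certain. The other neighbours in this order had overlapping ranges.

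**Figure D1:**
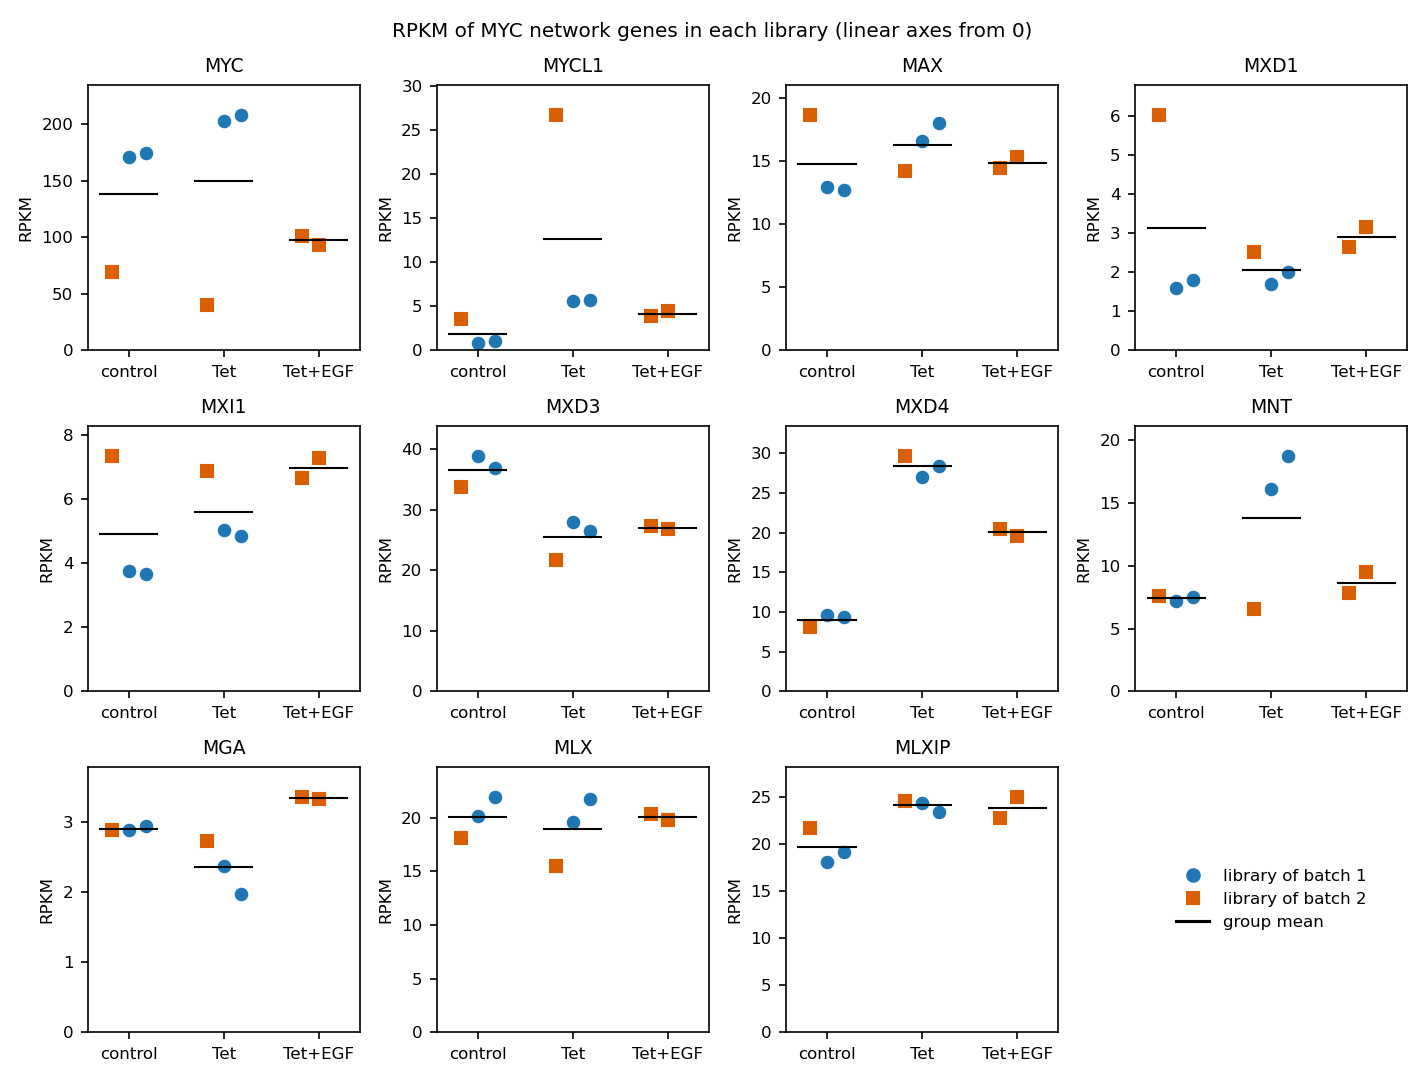
RPKM (vertical axes, linear from 0) of the 9 network genes and of MYCL1 and MLXIP in each of the 8 libraries by group. Circles are batch 1, squares batch 2 and lines group means. MXD4 is at 8.12 to 9.58 in control and 27.0 to 29.7 in Tet in both batches, while MYC separates by batch within control and within Tet.

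The network's response to induction of the hairpin was read from Tet against control. MXD4 rose about 3-fold and MXD3 fell, in both batches, and 7 members were not called. Across all genes tested 56.1% were called in this comparison, 26.2% higher and 29.9% lower (limma, Benjamini-Hochberg adjusted p under 0.05 over 12567 genes), so 1 higher and 1 lower of 9 is no more than the background.

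MXD4, a repressor partner of MAX, was at 8.12, 9.58 and 9.33 RPKM in control replicates 1 to 3. It was at 29.7, 27.0 and 28.4 in the Tet libraries. The groups did not overlap, with a mean of 9.01 ± 0.782 against 28.4 ± 1.305 RPKM (SD, n = 3 each). The difference on the log2(RPKM + 0.5) scale, used for all fold changes here, was 1.605 (SE 0.08, limma adjusted p = 1.84e-05). Batch 1 gave 1.504 and batch 2 gave 1.81. This pseudocount understates changes of low genes.

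MXD3, the MXD family member known to be expressed in cycling cells, was at 33.7, 38.9 and 36.9 RPKM in control and 21.7, 28.1 and 26.6 in Tet. These groups did not overlap either. The difference was -0.52 (SE 0.07, limma adjusted p = 0.000718). Batch 1 gave -0.46 and batch 2 gave -0.62. In the GENCODE annotation PRELID1, on the opposite strand, covers 22.5% of MXD3's exon bases and RAB24, on the same strand, 926 of its 5154. No source used here gives the use of strand in the counting, and reads of MXD3 and PRELID1 cannot be told apart there. PRELID1 had a mean of 122.2 RPKM and differed by -0.51 (limma adjusted p = 0.000558), and RAB24 had a mean of 11.3 and differed by 0.79.

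As MXD4 rose and MXD3 fell, the make-up of the MXD transcripts shifted more than their sum. MXD1, MXD3, MXD4 and MXI1 together came to 51.7 to 55.2 RPKM in control, 60.8 to 61.9 in Tet and 56.8 to 57.1 in Tet+EGF. MXD4 made up 14.7% to 18.03% of the sum in control, 43.7% to 48.8% in Tet and 34.5% to 35.9% in Tet+EGF. MXD3 made up 61.1% to 72.2%, 35.8% to 45.4% and 47.1% to 47.8%. These shares are descriptions with no test of their own. The sum and the shares rest on the listed value of MXD3, which may hold reads of the overlapping PRELID1 and RAB24. PRELID1 was lower with Tet as well. How much of the shift belongs to MXD3 itself was therefore not settled.

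**Figure D2:**
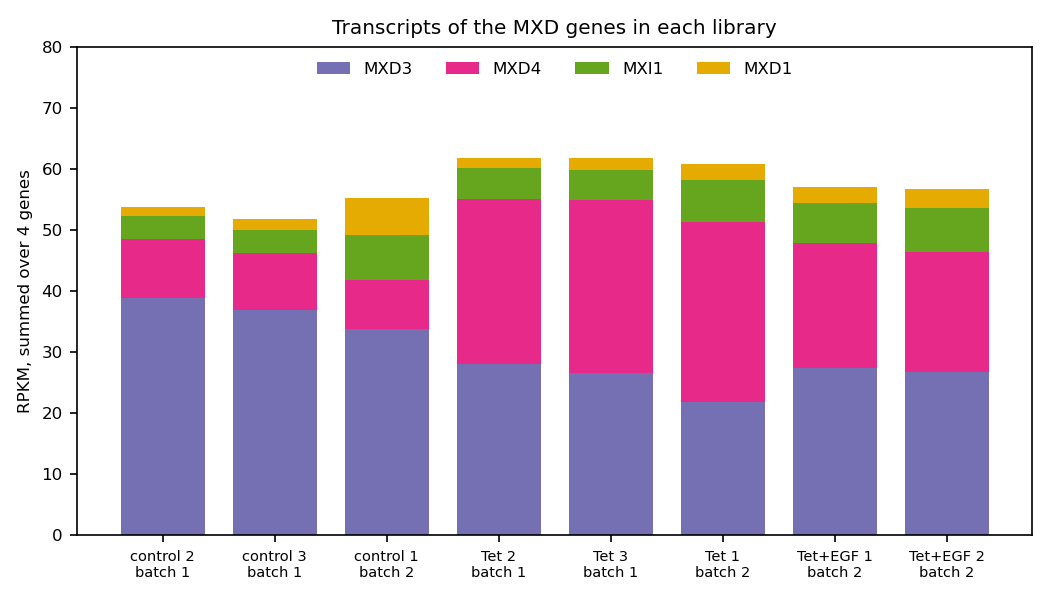
Stacked bars of RPKM (vertical axis, from 0) of MXD3, MXD4, MXI1 and MXD1 in each library, with its batch named below. The MXD4 part grows from at most 9.58 RPKM in control to at least 27.0 in Tet, while the bars stay between 51.7 and 61.9. The MXD3 part may hold reads of overlapping genes.

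MYC did not follow 1 direction. It was at 171.1 and 174.5 RPKM in the batch 1 control libraries and 202.4 and 208.0 in the batch 1 Tet libraries. In batch 2 it was at 69.2 in control and 39.7 in Tet. The log2 difference of Tet from control was 0.25 in batch 1 and -0.79 in batch 2. The batch difference of the Tet effect passed its own test (interaction of -1.04, SE 0.10, limma adjusted p = 0.00341). In the fit on all 8 libraries the difference was -0.10, with a 95% interval of -0.56 to 0.36 (limma adjusted p = 0.685). Batch 2 gives this test 1 control and 1 Tet library.

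MAX, MNT and MXD1 also differed between batches, against a background of 17.9% of genes called by the interaction test, 6.11% with a higher and 11.8% with a lower Tet effect in batch 2. All 4 members called by it, MYC among them, had the lower effect in batch 2. MNT, a repressor partner of MAX, was at 7.57, 7.24 and 7.53 RPKM in control. It was at 6.56 in the batch 2 Tet library and 16.1 and 18.7 in those of batch 1. MNT was therefore higher with Tet by 1.18 in batch 1 and stood at -0.19 in batch 2 (interaction of -1.38, limma adjusted p = 0.00743).

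The fit on all libraries gave MNT 0.72 (limma adjusted p = 0.0508), just short of the threshold. It passed with quantile scaling (limma adjusted p = 0.0327), median-ratio scaling (0.0347), a pseudocount of 1 (0.0499) and a filter at a mean RPKM of 5 (0.0493). Without control replicate 1 or without Tet replicate 1 the value was 1.18 and passed (limma adjusted p = 9.1e-05 and 9.17e-05). An antisense gene covers 12.2% of the exon bases of MNT. MAX, the common partner, was at 18.7 RPKM in the batch 2 control library, 12.9 and 12.7 in the other control libraries, and 14.2, 16.6 and 18.1 in Tet replicates 1 to 3. Its difference was 0.42 in batch 1 and -0.38 in batch 2 (interaction of -0.80, limma adjusted p = 0.0163).

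MXD1, the member known from differentiating keratinocytes, was low. It was at 6.02 RPKM in the batch 2 control library, 1.604 and 1.80 in the other controls, and 2.51, 1.69 and 2.00 in Tet. The high control library sets its difference of -1.11 in batch 2, while batch 1 gave 0.09 (interaction of -1.20, limma adjusted p = 0.0227). The value over all libraries was -0.31 with an interval of -0.88 to 0.26 (limma adjusted p = 0.303). In the same comparison 9 of 13 keratinocyte differentiation genes rose and 0 fell, among them LYPD3 at 3.03 and KRT13, a suprabasal keratin, at 4.25, beside 26.2% higher among all genes. The list's median came to 1.47 for batch 1 and 0.38 for batch 2, the interaction test called 10 of the 13, and KRT4 (-0.69), SBSN (-0.30) and KRTDAP (-0.32) had lower values with Tet in batch 2. With EGF 9 of the 13 fell against Tet and 0 rose, beside 9.15% lower among all genes, with KRT13 at -3.56 and LYPD3 at -2.18.

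**Figure D3:**
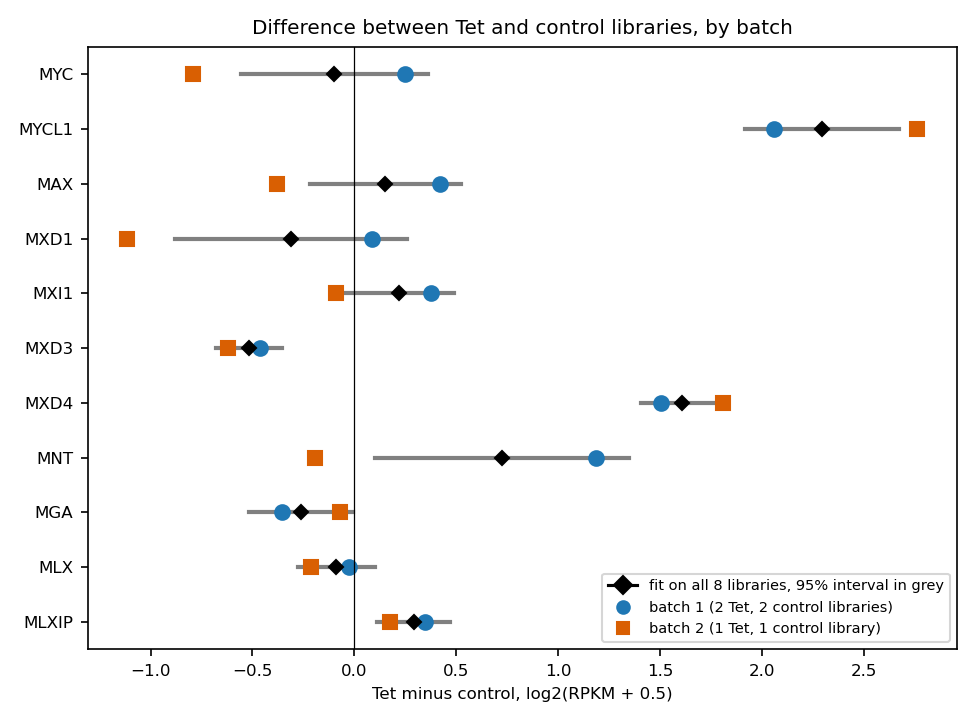
Tet minus control on the log2(RPKM + 0.5) scale (horizontal axis) for each gene, as the fit on all 8 libraries (diamonds, with 95% intervals), batch 1 (circles) and batch 2 (squares). MXD4, MXD3, MLX, MGA, MYCL1 and MLXIP lie on 1 side of 0 in both batches, and MYC, MAX, MXD1, MXI1 and MNT lie on opposite sides.

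The other members were not called. MXI1, an MXD family repressor, was at 7.35 RPKM in the batch 2 control and 3.76 and 3.67 in the others, against 6.87, 5.05 and 4.86 in Tet. Its difference was 0.22 (limma adjusted p = 0.139), and 0.37 without either replicate 1 library of control or Tet, where it passed (limma adjusted p = 0.00608 and 0.00611). MLX was at 18.1 to 21.9 RPKM in control and 15.5 to 21.7 in Tet, with a difference of -0.09 and an interval of -0.28 to 0.10 (limma adjusted p = 0.371). PSMC3IP, on the opposite strand, covers 18.1% of the exon bases of MLX, and PSMC3IP differed by -0.87 (limma adjusted p = 0.000189). MGA was at 2.89, 2.88 and 2.93 RPKM in control and 2.72, 2.37 and 1.97 in Tet, groups that did not overlap. Its difference of -0.26 did not pass (limma adjusted p = 0.0752), and at -0.36 it passed in each of the fits that leave out a replicate 1 library of control or Tet (limma adjusted p = 0.0227 in each). MAX passed at 0.42 without either of the same libraries (limma adjusted p = 0.00163 and 0.00161), and so did MYC at 0.25 (limma adjusted p = 0.00707 in each fit). The fits without one of these libraries compare Tet with control within batch 1 alone.

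Among the network genes outside the 9, MYCL1 moved most. MYCL1, which encodes L-MYC, was at 3.51, 0.859 and 1.10 RPKM in control and 26.7, 5.58 and 5.69 in Tet. The groups did not overlap, and the batch 2 library was the highest in each. The difference was 2.29 (SE 0.16, limma adjusted p = 4.71e-05). Batch 1 gave 2.06 and batch 2 gave 2.76. MLXIP, which encodes MondoA, was at 18.1 to 21.6 RPKM in control and 23.4 to 24.5 in Tet. It rose by 0.29 (limma adjusted p = 0.0143), but did not pass with the replicate number as a block (limma adjusted p = 0.0955), without control replicate 2 (0.0581) or without Tet replicate 2 (0.0529). MLXIPL was at or below 0.611 RPKM in each library, and MYCN was listed at 0 in all 8.

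The effect of added EGF while the hairpin was on was read from Tet+EGF against Tet. MYC was called higher and MXD4 lower, beside 19.0% of all genes called, 9.82% higher and 9.15% lower, and neither call held in most fits that left out 1 library. MYC was at 101.4 and 93.3 RPKM with EGF, between the batch 2 Tet library (39.7) and those of batch 1 (202.4 and 208.0). Both EGF libraries were in batch 2, where MYC was higher with EGF than in Tet by 1.28 and than in control by 0.49. The fit on all libraries, which assumes the same batch difference in each group, gave 0.93 (SE 0.26, limma adjusted p = 0.0454). MYC went against that assumption by the interaction test above. The call was lost without Tet replicate 1 (0.24, limma adjusted p = 0.0711) and without each of Tet replicates 2 and 3, control replicates 2 and 3 and either Tet+EGF library (limma adjusted p from 0.0584 to 0.199). It held without control replicate 1. With the replicate block the value was 0.03 (limma adjusted p = 0.984), without a batch term it was -0.29, and with no filter it did not pass (limma adjusted p = 0.0852). The block sets Tet+EGF replicate 2 beside batch 1 libraries, so EGF values with the block, here and below, mix in the batch difference.

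MXD4 was at 20.5 and 19.6 RPKM with EGF. These values lay below all 3 Tet libraries (27.0 to 29.7) and above all 3 control libraries (8.12 to 9.58). The difference from Tet was -0.45 (SE 0.11, limma adjusted p = 0.0317), and -0.55 within batch 2. It did not pass without Tet replicate 1, where it was -0.25 (limma adjusted p = 0.0874), nor without Tet replicate 3, control replicates 2 or 3 or either Tet+EGF library (limma adjusted p from 0.0503 to 0.183). With the replicate block it was -0.48 and did not pass (limma adjusted p = 0.106), nor did it with quantile scaling (limma adjusted p = 0.057). Against control MXD4 was higher with EGF by 1.15 (SE 0.11, limma adjusted p = 0.000616), and by 1.25 within batch 2.

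The remaining members were not called between Tet+EGF and Tet. MXD3 was at 27.3 and 26.8 RPKM with EGF, within the range of the Tet libraries, with 0.26 (limma adjusted p = 0.0967). MGA was at 3.35 and 3.32, above each Tet and control library, with 0.35 against Tet (limma adjusted p = 0.144). MLX gave 0.30 (limma adjusted p = 0.1). MNT was at 7.85 and 9.48 RPKM, above the batch 2 Tet library and below those of batch 1, and its value of -0.09 turned to 0.37 within batch 2. MXD1 was at 2.64 and 3.16 RPKM, above all 3 Tet libraries (1.69 to 2.51). Its fitted value was nevertheless -0.23, from a batch term common to all groups, and 0.17 within batch 2. MAX (-0.20) and MXI1 (-0.13) likewise stood at 0.06 and 0.02 within batch 2. The 95% interval of MXD1 ran from -0.98 to 0.52 and that of MAX from -0.70 to 0.29. Both come from the fit with a common batch term, an assumption that MXD1 and MAX went against by the interaction test. The intervals therefore do not bound the change with EGF, and the lack of a call does not show that there was none.

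Without Tet replicate 1, 4 of these values passed (limma adjusted p from 0.00254 to 0.0342). They stood at -0.73 for MAX, -1.03 for MXD1, -1.01 for MNT and -0.44 for MXI1. That fit holds no Tet library of batch 2, and it compares EGF with Tet through control replicate 1 and the batch 1 libraries. These values therefore rest on 1 control library. Within batch 2 they were 0.06 for MAX, 0.17 for MXD1, 0.37 for MNT and 0.02 for MXI1. MGA passed at 0.53 in that fit (limma adjusted p = 0.0432). Without control replicate 1, MXD3 (0.31, limma adjusted p = 0.0162) and MLX (0.36, limma adjusted p = 0.0224) passed.

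Outside the 9, MYCL1 fell with EGF. It was at 3.93 and 4.44 RPKM, below all 3 Tet libraries (5.58 to 26.7) and above all 3 controls (0.859 to 3.51). The difference from Tet was -2.30 (SE 0.21, limma adjusted p = 0.000715), and -2.54 within batch 2, against the single Tet library of that batch. Without Tet replicate 1 it was -1.84 and passed. With the replicate block it was -1.37 (limma adjusted p = 0.164) and without a batch term -1.11 (limma adjusted p = 0.374), and it did not pass in either. MLXIP was at 22.7 and 24.9 RPKM and gave -0.10 (limma adjusted p = 0.543).

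Against control, which this comparison shares with Tet against control, Tet+EGF gave calls for MXD4 (above) and MYC, beside 32.2% of all genes called, 16.0% higher and 16.2% lower. MYC was at 0.83 (limma adjusted p = 0.045), and at 1.53 without control replicate 1. That call was lost without Tet replicates 2 or 3, control replicates 2 or 3 or either Tet+EGF library (limma adjusted p from 0.0719 to 0.173), and the value was -0.07 with the replicate block and -0.39 without a batch term. MXD3 was lower in both EGF libraries than in each control library, at -0.26, and did not pass (limma adjusted p = 0.0634). Without control replicate 1, the fit called MNT at 1.55 (limma adjusted p = 0.000689) and MAX at 0.48 (0.0139). That fit holds no control of batch 2, and it compares EGF with control through Tet replicate 1 and the batch 1 libraries. Within batch 2, against its 1 control library, MNT stood at 0.18, MAX at -0.32 and MYC at 0.49. Without Tet replicate 1 the values are those within batch 2. The fit then called MXD1 at -0.94 (limma adjusted p = 0.00228), MAX at -0.32 (0.0184) and MXD3 at -0.31 (0.00936).

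The ratios of MYC to MAX, to the summed MXD genes and to MNT were higher in batch 1 than in batch 2. This held within control and within Tet, as it did for MYC itself. In RPKM over RPKM, MYC stood at 13.2 and 13.7 times MAX in the batch 1 controls and 12.2 and 11.5 times in the batch 1 Tet libraries. In batch 2 it was 3.71 in control, 2.79 in Tet, and 7.01 and 6.08 with EGF. Over the 4 MXD genes summed, MYC was at 3.18 and 3.37 in the batch 1 controls, 3.27 and 3.36 in the batch 1 Tet libraries, 1.25 and 0.654 in the batch 2 control and Tet libraries, and 1.78 and 1.64 with EGF. Over MNT it stood at 23.6 and 23.2 in control against 12.54 and 11.1 in Tet within batch 1, and at 9.13 against 6.05 within batch 2, with 12.9 and 9.84 in the EGF libraries. MYC over MAX and MYC over MNT were lower in Tet than in control in both batches.

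Genes that MYC is known to activate were lower with Tet. Of 45 nucleolar and ribosome biogenesis genes, 39 fell and 0 rose, beside 29.9% lower and 26.2% higher among all genes tested. Their median was -0.66, against -0.04 for all genes, with -0.48 in batch 1 and -0.95 in batch 2. The interaction test called 26 of the 45, beside 17.9% of all genes, so the size of the fall differed between batches for these. NPM1, a nucleolar histone chaperone gene, was at 471.7, 324.7 and 331.2 RPKM in control and 248.9, 185.0 and 154.4 in Tet (-0.94, limma adjusted p = 8.53e-05). NCL, which encodes nucleolin, was at -0.73, POLR1A, the large subunit of RNA polymerase I, at -0.96 and NLE1, of large subunit assembly, at -0.90. In batch 1, where MYC was higher with Tet, 3 of these 45 genes had higher values with Tet, and in batch 2, where MYC was lower, 0 did.

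Of 31 other genes known to be activated by MYC, 27 fell and 2 rose, TFRC among them. Their median of -0.76 came with -0.70 for batch 1 and -0.87 for batch 2. The interaction test called 9 of the 31, beside 17.9% of all genes. CAD, of pyrimidine synthesis, was at 19.3, 27.2 and 29.4 RPKM in control and 8.14, 12.6 and 12.4 in Tet (-1.16, limma adjusted p = 2.75e-05). SHMT2, of one-carbon metabolism, was at -2.29, CCND2, which encodes cyclin D2, at -1.92, and GART, of purine synthesis, at -0.97. The transferrin receptor gene TFRC, named after its value was seen, rose by 1.55.

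With EGF these groups were partly higher than with Tet. Of the 45 ribosome biogenesis genes 13 rose and 0 fell, beside 9.82% higher among all genes, with a median of 0.38 against 0.02 for all genes, and 43 of 45 had higher values with EGF within batch 2. WDR12 was at 0.56, NCL at 0.43, NLE1 at 0.50 and PWP2 at 0.47. That count was 0 without Tet+EGF replicate 1, 1 without Tet+EGF replicate 2, 8 without control replicate 2 and 38 without control replicate 1. Without Tet replicate 1, 8 rose and 4 fell. In fits without 1 library the calls among all 12567 genes ran from 843 to 4893, beside 2384 in the fit on all libraries. Counts of each list in these fits, here and below, are to be read beside that range. Of the 31 other activated genes 12 rose and 0 fell, with a median of 0.40. CAD gave 0.85 and GART 0.74, and TFAP4, a transcription factor gene that MYC activates, gave 1.12. TERT gave 2.28, and since the line was made with a telomerase transgene its reads cannot be told from the transgene's. The count of 12 became 6 and 7 without Tet+EGF replicate 1 and 2, and 22 rose and 2 fell without Tet replicate 1. WDR12 lost its call without Tet+EGF replicate 1 (limma adjusted p = 0.0839), and NCL, NLE1 and PWP2 lost theirs without either Tet+EGF library (limma adjusted p from 0.0662 to 0.102). With the replicate block CAD (limma adjusted p = 0.0829), GART (0.132), TERT (0.23), WDR12 (0.507), NCL (0.897), NLE1 (0.151) and PWP2 (0.494) did not pass, nor did these 7 without a batch term (limma adjusted p from 0.124 to 0.94). TFAP4 passed in both.

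Genes known to be repressed by MYC showed no common direction. Of 13 tested, 4 rose and 4 fell with Tet, near the 26.2% and 29.9% of all genes, and the median was 0.22. The interaction test called 8 of the 13, beside 17.9% of all genes. CLU, which encodes the chaperone clusterin, was at 3.16, 1.91 and 2.03 RPKM in control and 20.7, 13.3 and 12.1 in Tet (2.46, limma adjusted p = 6.98e-06), and its difference of Tet+EGF from Tet was -1.96. ITGA6, an integrin gene, was at -1.78, NDRG1 at -2.12 and THBS1, the thrombospondin gene, at -1.72. With EGF, ITGA6 was higher than with Tet by 0.71, ITGB4 by 1.45 and THBS1 by 2.53, and 4 genes rose and 2 fell in all, beside 9.82% and 9.15% of all genes. THBS1 did not pass with the replicate block (1.38, limma adjusted p = 0.222) or without a batch term (0.98, limma adjusted p = 0.539). Without control replicate 1 the EGF comparison gave 4 higher and 6 lower, and without Tet replicate 1 it gave 6 higher and 5 lower.

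**Figure D4:**
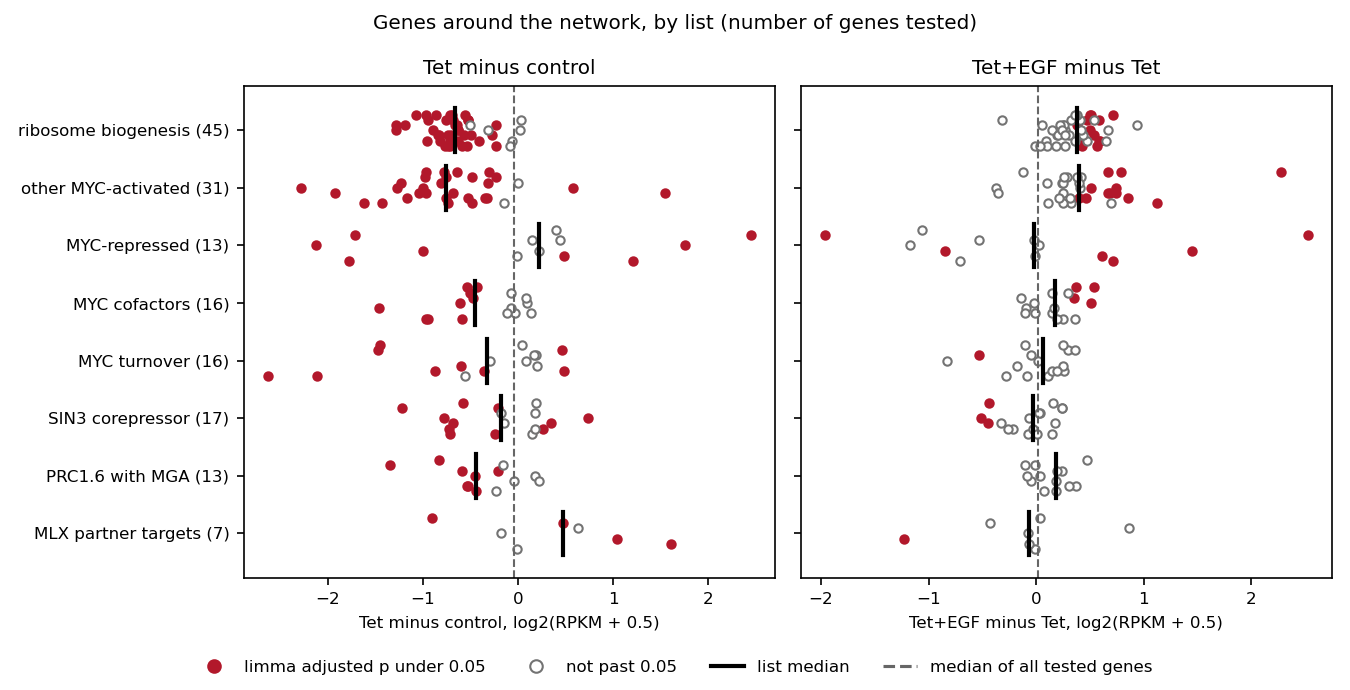
Differences on the log2(RPKM + 0.5) scale (horizontal axes) of genes in 8 lists around the network, for Tet minus control (left) and Tet+EGF minus Tet (right). Each point is a gene, filled where the limma adjusted p is under 0.05, and bars are list medians. The median of ribosome biogenesis genes is -0.66 on the left and 0.38 on the right.

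Cofactors and regulators of the network were mostly lower with Tet or not called. Of 16 MYC cofactors 9 fell and 0 rose, with a median of -0.45 and beside 29.9% lower among all genes. ACTL6A, of the chromatin remodelling complexes, was at -0.97, HCFC1 at -0.95, WDR5, a cofactor that MYC shares with PRC1.6, at -0.59 and RUVBL1, an ATPase of the TIP60 complex, at -0.61. RUVBL1 did not pass with the replicate block (limma adjusted p = 0.0606). With EGF 4 of the 16 rose and 0 fell, beside 9.82% higher among all genes. TRRAP was at 0.54. The count was 0 without either Tet+EGF library, 1 without control replicate 3, 2 without control replicate 2 or Tet replicate 2, and 8 without control replicate 1. Without Tet replicate 1, 4 rose and 2 fell. RUVBL1 (0.51), RUVBL2 (0.36) and EP400 (0.37) were the other 3 called.

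Of 16 genes that set MYC protein turnover 7 fell and 2, BTRC at 0.48 and TRPC4AP at 0.46, rose, and these 9 of 16 are near the 56.1% called among all genes. The latter were named after their values were seen. Those that fell included the mitotic kinase genes PLK1 (-2.63) and AURKA (-2.12), the ubiquitin protease gene USP28 (-1.45) and SET (-0.60). With EGF 1 of the 16, the ubiquitin ligase gene HUWE1, was called, at -0.53, and did not pass without either Tet+EGF library or without control replicates 2 or 3 (limma adjusted p from 0.0554 to 0.169). Without either replicate 1 library the EGF counts were 6, with 2 higher and 4 lower in the fit without that of control and 3 higher and 3 lower in the fit without that of Tet.

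Of 17 SIN3 and histone deacetylase complex genes, which serve the MXD proteins and MNT, 8 fell and 3 rose with Tet, with a median of -0.18 and beside 56.1% called among all genes. SAP30 was at -1.22, SAP130 at -0.78, RBBP7 at -0.68 and BRMS1L at 0.74. With the replicate block 5 fell and 1 rose. With EGF 3 fell, SUDS3 at -0.45, SAP30L at -0.43 and BRMS1L at -0.51, beside 19.0% called among all genes. The EGF count was 0 without either Tet+EGF library, control replicate 2 or Tet replicate 2, 1 without control replicate 3, and 3 higher and 3 lower without Tet replicate 1. Of 13 subunits of the MGA complex PRC1.6, 8 fell and 0 rose with Tet, with a median of -0.44 and beside 29.9% lower among all genes, or 5 without control replicate 3. YAF2 was at -1.35, CBX3 and RNF2 at -0.53 each. With EGF 0 of 13 were called over all libraries (limma), with 3 higher and 1 lower without control replicate 1 and 7 higher and 2 lower without Tet replicate 1.

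Of the genes that MLX controls with MondoA or ChREBP, TXNIP and ARRDC4 stood apart by batch. TXNIP, an inhibitor of glucose uptake and the best known MondoA target, was at 35.2 and 34.3 RPKM in the batch 1 controls and 551.4 in the batch 2 control. It was at 22.5 and 16.4 in the batch 1 Tet libraries, 266.6 in the batch 2 Tet library, and 254.9 and 322.8 with EGF. ARRDC4, a second MondoA target, was at 3.26 and 3.60 RPKM in the batch 1 controls and 54.5 in that of batch 2. It was at 11.1 and 9.41 in the batch 1 Tet libraries, 64.4 in that of batch 2, and 33.1 and 39.3 with EGF. Every batch 2 library was thus above every batch 1 library for both genes, while MLX stayed at 15.5 to 21.9 RPKM.

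Between Tet and control TXNIP was at -0.91 and ARRDC4 at 1.05, opposite in sign (limma adjusted p = 0.00134 and 0.00807), and neither passed with the replicate block (0.379 and 0.261). Of 7 genes of that list tested 3 rose and 1 fell, beside 56.1% called among all genes, with a median of 0.48, and with the replicate block 2 rose and 0 fell. ACLY, the ATP citrate lyase gene, was at 1.61 and KLF10 at 0.48. The interaction test called 4 of the 7, beside 17.9% of all genes. With EGF only ARRDC4 of the 7 was called, at -1.23, and the call was lost in each fit without 1 library other than the replicate 1 libraries of control and Tet (limma adjusted p from 0.0596 to 0.178). Those 2 fits called 4 (1 higher, 3 lower) and 5 (3 higher, 2 lower) of the 7.

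Genes whose pattern over the 8 libraries was most like that of MYC were PMM2, a glycosylation enzyme gene (Pearson r = 0.987), PYCRL (0.984), JMJD4 (0.978), DCAF13 (0.971) and TMEM184B (0.970), among the 8544 genes compared. With Tet, PMM2 was lowest in batch 2 (12.8 RPKM, against 26.3 and 28.4 in batch 1), the same order as MYC. Most like MXD1 were RGP1 (0.988), the circadian gene PER1 (0.988), UBE2H (0.978), C12orf47 (0.978) and TBRG1 (0.977). PER1 was at 82.0 RPKM in the batch 2 control library and 29 to 50.2 in the other 7. The 8 libraries fall into 2 batches and 3 groups, which these correlations share, and no test was made of these values.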

How the data were processed

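Polyadenylated RNA was sequenced with 1 library in each lane of a Genome Analyzer IIx, per the labels' protocols. Reads were aligned with TopHat 1.3.3, per the submitters' processing notes. The authors deposited 1 table of RPKM values, 1 column per library. For the counting tool, genome build and annotation nothing is given in the sources used here. Groups and batches come from the labels.

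Here log2(RPKM + 0.5) of the 12567 genes with at least 1 RPKM in at least 2 libraries was modelled in R 4.3.3 by limma 3.58.1, using lmFit and a trended eBayes, with group and batch as terms on all 8 libraries. The batch by Tet interaction was fitted on the 6 control and Tet libraries. P-values are two-sided, with Benjamini-Hochberg adjustment over the genes kept and a threshold of 0.05. Simulated data took the groups, batches and gene spreads of these libraries, with 200 of 12567 genes changed and the same batch difference in each group. For Tet against control 77.0% of 2-fold and 46.4% of 1.5-fold changes were recovered, with 5.01% false calls. The real data had 56.1% of genes called there and 17.9% by the interaction, so these rates need not hold for them. The EGF comparisons were not read from the simulation.

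Same-numbered control and Tet libraries deviated together from their group means (correlation across genes of 0.476, 0.314 and 0.338). The replicate number was therefore tried as a block. Differently numbered control and Tet libraries of the same batch gave 0.334 and 0.272, so the shared deviation need not come from the number. Numbers coincide in part with batch, and same-numbered Tet+EGF libraries gave negative values. The block took the place of the batch term, and it set a Tet+EGF library beside control and Tet libraries of the other batch. Its EGF values therefore mix in the batch difference, and a call lost or kept there does not decide the effect of EGF. The spread of that fit also serves Tet against control. Other alternatives were the pseudocount, filter, scaling, batch term, libraries in the fit, each batch alone, and leaving out each library.

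The members and gene lists were chosen with earlier results of these data known. Named genes are the 9 members, AREG, lists of 4 or fewer genes, up to 4 genes per list with the smallest p among those called in Tet against control and in Tet+EGF against Tet, and the 5 genes of mean RPKM 5 or more with the highest Pearson r with MYC and with MXD1 over the 8 libraries. PRELID1, RAB24 and PSMC3IP are named outside this rule, for their overlap with members, as are single markers of cell types. Promoters are from RefSeq (GRCh38.p14) and exon overlaps from GENCODE 29. Tables and figures were made with matplotlib 3.10.9, pandas 2.3.3 and numpy 2.4.6 under Python 3.11.15.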

Additional observations from a re-analysis of the deposited data

Results flagged for a closer look

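The Tet effect differed between batches by the interaction test (limma, adjusted over 12567 genes) for 4 of the 9 network genes. It was lower in batch 2 by 1.04 for MYC, as a value of -1.04 (limma adjusted p = 0.00341). For MNT the value was -1.38 (limma adjusted p = 0.00743), for MXD1 -1.20 (limma adjusted p = 0.0227) and for MAX -0.80 (limma adjusted p = 0.0163). Batch 2 adds 1 control and 1 Tet library to this test.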

How the results depend on the processing

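For Tet against control, MXD4 (1.504 to 1.81) and MXD3 (-0.62 to -0.44) passed in all 19 alternatives run. Tet+EGF is in batch 2 only, and its comparisons depend on how batch enters. Values are log2 differences or counts of calls, and where no cause shows in how an alternative was built the cause was not tested. Within batch 1 alone, 6 network genes were called for Tet against control, with MYC at 0.25 and MXD1 at 0.088. Within batch 2 alone 6 were called, with MAX at -0.38, MXI1 at -0.090 and MNT at -0.19. That fit takes its spread from the 2 Tet+EGF libraries. It called 5635 genes and 4 network genes for Tet+EGF against Tet, with MAX at 0.061, MXD1 at 0.17, MXI1 at 0.020 and MNT at 0.37. Against control it called 7948 and 5, with MXI1 at -0.070 and MYCL1 at 0.22. With only the 2 groups compared, these 6 gene values were the same, with 4133 and 4 called against Tet and 7021 and 5 against control. The main counts were 2384 and 2 against Tet and 4051 and 2 against control. With the replicate block, 849 genes and 0 network genes were called against Tet (MXD1 0.29, MXI1 0.19, ARRDC4 0.36), and 2295 and 1 against control (MYC -0.074, MAX 0.024, MYCL1 0.92). The block left the calls of MXD4 and MXD3 in Tet against control, and its EGF values mix in the batch difference as described above. Without a batch term 1163 genes and 1 network gene were called against Tet, with MYC at -0.29, MXD1 at 0.41, MXI1 at 0.31, RUVBL1 at -0.048, RUVBL2 at -0.10, SAP30L at 0.047, ARRDC4 at 0.91 and NCL at -0.042. Against control it called 1 network gene, with MYC at -0.39, MAX at 0.032, MXD1 at 0.10 and MYCL1 at 1.18. With no filter 1 network gene was called in each EGF comparison and 1 by the interaction, and with quantile scaling 1 against Tet, with the MLXIP interaction at 0.0013. MYCL1 in Tet+EGF against control was 0.0013 with median-ratio scaling and 0.087 with a pseudocount of 0.1. The interaction fit on all 8 libraries, added after seeing the data, called the same number of network genes, 4.

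With 1 library left out, network genes called ranged from 2 to 7 for Tet against control, 0 to 5 for Tet+EGF against Tet and 1 to 5 against control. Genes called ranged from 843 to 4893 for Tet+EGF against Tet and from 1615 to 6582 against control. Without Tet replicate 1 no Tet library shares a batch with Tet+EGF, and without control replicate 1 no control library does. In Tet against control MYC ranged from -0.21 to 0.25 and MXD1 from -0.48 to 0.088. Against Tet, AREG ranged from -0.49 to 1.46, MAX from -0.73 to 0.061, MNT from -1.01 to 0.37, MXD1 from -1.03 to 0.17 and MXI1 from -0.44 to 0.020. In Tet+EGF against control, MAX ranged from -0.32 to 0.48, MGA from -0.10 to 0.18, MXD1 from -0.94 to 0.26, MXI1 from -0.070 to 0.39 and MYCL1 from -0.48 to 0.22.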
